A study of Ovis aries with 23 samples.

Results

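Border tissue of adolescent sheep hearts was compared with border tissue of fetal sheep hearts, both taken 3 days after a diagonal branch of the left anterior descending artery had been tied. The 6 arrays, Adolescent Border 1 to 3 and Fetal Border 1 to 3, were chosen by their titles from the 23 arrays of the series. The fetuses were at 105 days of gestation and the adolescent animals were 6 months old. The other arrays held infarct and remote tissue of the same ages and tissue after sham surgery, with 3 arrays a group and 2 for adolescent sham, and they serve here to show where border tissue differs. The labels give no strain or sex, and they do not say whether arrays of a group came from separate animals or whether the zones of 1 number came from 1 heart. The p-values below thus reflect how far these samples scatter, and that scatter may be technical.

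The border zone is the rim of surviving muscle beside an infarct, where cardiomyocytes meet the inflammatory cells, fibroblasts and new vessels of the repairing tissue. In sheep the fetal heart is known to heal an infarct with little scar, while a heart after birth replaces the lost muscle with collagen. Birth and growth also bring a switch from fetal to adult haemoglobin, a fall of the fetal growth factor IGF2 and an adaptive immune system that has met antigens, none of which needs an injury.

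The RNA carried 1 dye, Cy3, and the sheep array held 15008 probes. Levels are log2 signals relative to the 75th percentile of their array, so a level of 0 equals that percentile and a difference of 1 is a doubling. A positive difference means higher in adolescent border. Errors of differences are standard errors (SE) from 1 limma model over all 8 groups, and p-values are adjusted by the Benjamini-Hochberg method over the 12451 probes that passed a filter on dim probes, with a threshold of 0.05. A gene was named for 1713 probes, which left 880 named genes tested, each through its brightest probe. Precision is limited by how few arrays each group has.

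A pair of the 6 arrays stood apart. Adolescent border 3 was the dimmest, with a 75th percentile of 230.3 intensity units against 521.7 and 671.9 on the other adolescent border arrays and 494.4 to 617.7 on the fetal border arrays, and with 64.35% of probes well above background against 73.37% to 79% on the other 5. Its mean correlation over the tested probes was 0.968 with adolescent remote arrays and 0.906 with adolescent infarct arrays, whereas adolescent border 1 and 2 were nearer to infarct (0.953 and 0.952) than to remote (0.939 and 0.931). Fetal border 3 likewise was nearer to fetal remote (0.980) than to fetal infarct (0.952), and fetal border 1 and 2 were nearer to infarct (0.980 and 0.977) than to remote (0.963 and 0.971). Both arrays of number 3 thus lay closer to remote muscle than their partners did. The summed signal of 7 macrophage and monocyte markers, in multiples of the array's 75th percentile, was 81.0, 97.8 and 34.4 on adolescent border 1, 2 and 3 and 42.2, 32.7 and 10.4 on fetal border 1, 2 and 3. The sum of MYH7 and MB, the measured pair among 16 cardiomyocyte markers, was 140, 138 and 336 on the adolescent arrays and 124, 114 and 179 on the fetal arrays. In tissue RNA, fewer cells of a type and less RNA per cell cannot be told apart.

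**Figure D1:**
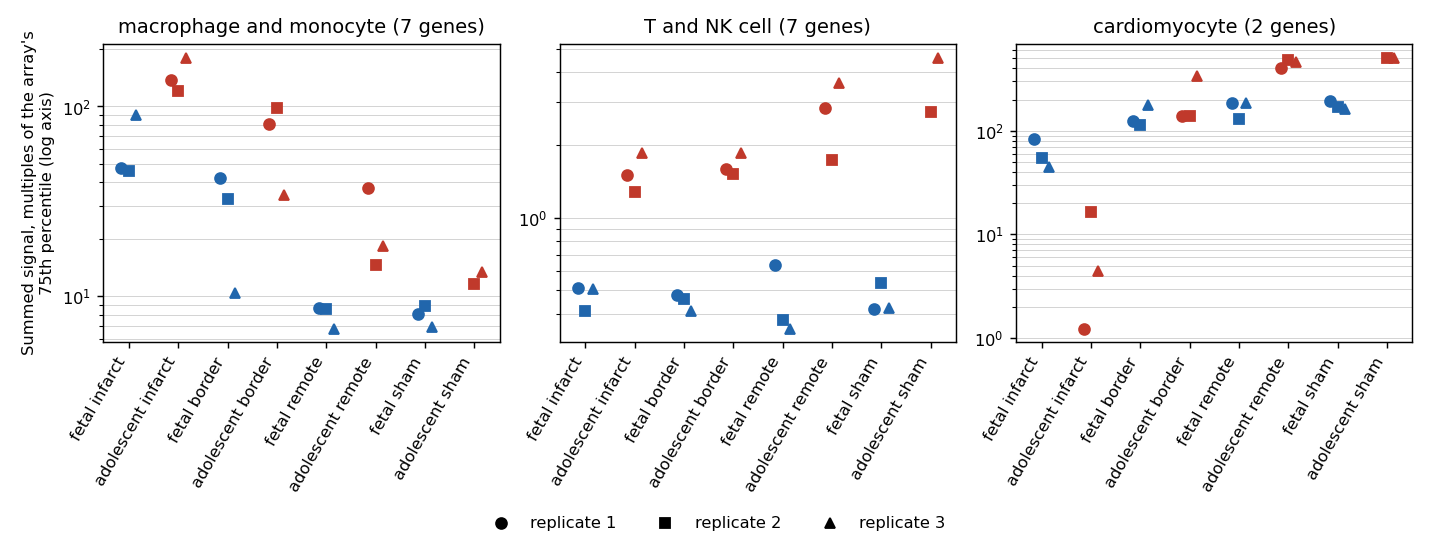
Summed signal of the measured macrophage and monocyte, T and NK cell and cardiomyocyte markers on each of the 23 arrays, on log axes in multiples of the array's 75th percentile, with fetal arrays in blue, adolescent arrays in red and the replicate number by symbol. Replicate 3 of both border groups had the lowest macrophage sum (34.4 and 10.4) and the highest cardiomyocyte sum (336 and 179) of its group.

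Of the 12451 probes, 1609 (12.9%) differed between adolescent and fetal border, 743 higher (5.97%) and 866 lower (6.96%) in adolescent border. Among named genes 133 of 880 (15.1%) passed, 80 higher (9.09%) and 53 lower (6.02%). These shares are the background for the counts of lists and families below, none of which was tested as a set. The median difference was 0.055 over all tested probes and 0.18 over named genes. The values of the border groups did not overlap for 3791 probes (30.4%) and 272 named genes (30.9%). The count of differing probes was 876 without fetal border 3, 978 without adolescent border 2, 1038 without fetal border 2, 1071 without adolescent border 1 and 898 without both arrays of number 3. A different background correction (normexp) left 39 probes and 5 of the 59 differing genes that the naming rule picks, which were HBBF, IGF2, IGFBP2, IGHG1 and TUBA4A.

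**Figure D2:**
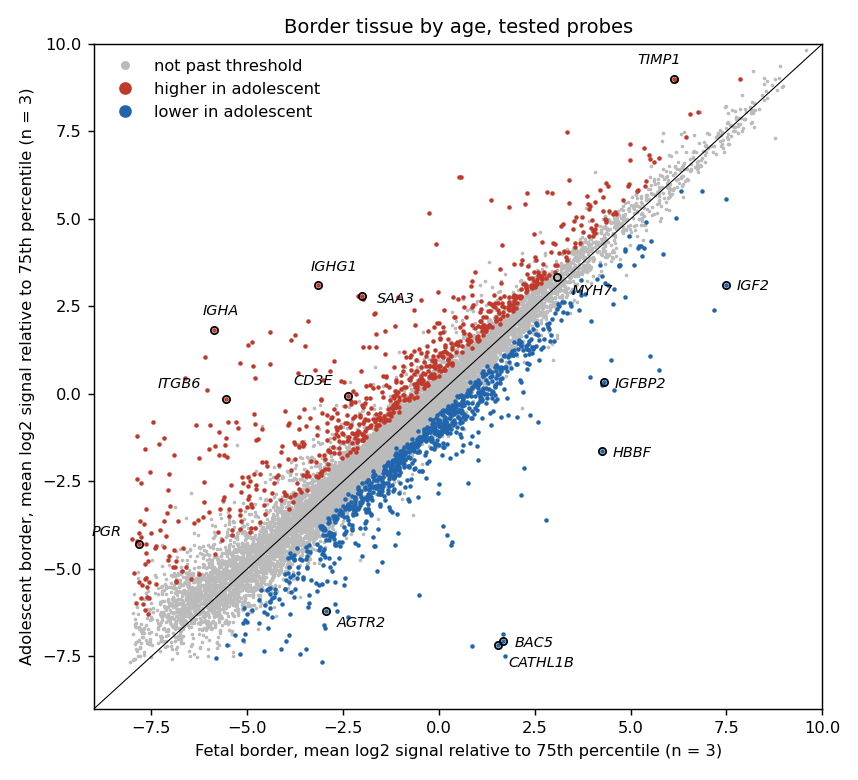
Mean level of each of the 12451 tested probes in fetal border (horizontal axis) and adolescent border (vertical axis), in log2 signal relative to the 75th percentile, with 3 arrays a group. Red marks the 743 probes higher and blue the 866 lower in adolescent border, and the labelled genes farthest below the diagonal are BAC5 and CATHL1B.

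The lowest differences of all named genes belonged to the cathelicidins, antimicrobial peptides that neutrophils store in their granules. BAC5, which encodes a proline-rich peptide, stood at 2.43, 1.79 and 0.83 in fetal border and at −7.28, −7.74 and −6.19 in adolescent border. All 3 fetal arrays were bright and no adolescent array was well above background. Where every array of a group is that dim, only a bound can be given, for which each such array is raised to the dimmest signal that still counted as well above background on it. BAC5 was at least 130-fold lower in adolescent border (adjusted p = 1.6e-05). CATHL1B was at least 117-fold lower (1.0e-05), from 2.23, 1.62 and 0.75 in fetal border. CATHL3 was at least 72.8-fold lower (3.3e-05), from 1.81, 0.78 and −0.04. SC5, another member, was 10.9-fold lower (−3.44 ± 1.01, adjusted p = 0.032), and its fetal levels of 0.10, −3.32 and −1.62 were the most scattered. The array holds 6 cathelicidin probes, a family picked out after its values were seen. On 5 of them no adolescent border array was well above background, with bounds of 72.8-fold to 133-fold, so that they entered the test through the fetal group and their count supports nothing. Between the probes of BAC5, CATHL1B, CATHL3 and SC5 the longest shared run was 7 to 12 of 60 bases, and whether RNA of 1 member binds another member's probe was not tested.

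Of 3 measured neutrophil markers 1 was lower and none higher. LTF encodes lactoferrin, an iron-binding protein of neutrophil granules, and lay at −1.96, −2.08 and −3.37 in fetal border against −5.26, −4.82 and −6.27 in adolescent border, which was 7.89-fold lower (−2.98 ± 0.86, adjusted p = 0.029). The groups did not overlap. The array's probe for it is a stretch of reading frame, shown because it lets the transcript measured here be looked up.
LTF: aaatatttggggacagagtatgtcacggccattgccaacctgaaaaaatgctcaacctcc
The remaining measured neutrophil markers were ITGB2, an integrin chain of white cells in general (1.63 ± 0.71, adjusted p = 0.14), and MMP9, a gelatinase (2.05 ± 1.06, adjusted p = 0.23), and neither passed. The summed level of the 3 neutrophil markers was 11.2, 7.55 and 1.94 on the adolescent arrays and 3.54, 3.19 and 0.656 on the fetal arrays. It was higher in adolescent border on each slide, but the sum is of unlogged signals, to which the dim LTF adds little there. Another ITGB2 probe read 2.95, 2.57 and 0.43 on the adolescent arrays. Since ITGB2 belongs to white cells in general, the sum cannot be read as neutrophil content. The call of LTF ended without fetal border 1 or 2 or adolescent border 1 or 3 (adjusted p = 0.064 to 0.093), and that of SC5 without any 1 array except fetal border 2 (0.066 to 0.13).

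MCP-3 is described on the array as mast cell proteinase-3, a granule protease of mast cells. It stood at −3.55, −3.54 and −3.15 in fetal border and at −6.12, −6.65 and −5.53 in adolescent border, where no array was well above background, and was at least 3.79-fold lower (adjusted p = 0.016). Of 6 probes for mast cell proteinases and tryptase, again picked out after their values were seen, 5 passed the filter, 2 were lower and none higher, with a median of −2.04. The 2 measured genes of the mast cell marker list, FCER1A and KIT, were at −1.13 and −0.96 and did not pass. The call of MCP-3 ended without adolescent border 2 or fetal border 3 (adjusted p = 0.062 and 0.071), and with normexp background correction its difference was 0.00.

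The fetal globin and a globin chaperone were lower in adolescent border, with no overlap between the ages. HBBF, the fetal beta-type globin of sheep, was measured at 4.06, 4.30 and 4.42 in fetal border and at −2.44, −1.03 and −1.44 in adolescent border, 59.6-fold lower (−5.90 ± 0.56, adjusted p = 5.3e-06). AHSP encodes the chaperone of free alpha globin in red cell precursors. It stood at 0.13, 1.23 and −0.36 in fetal border and at −4.50, −3.72 and −4.48 in adolescent border, 23.7-fold lower (−4.57 ± 0.88, adjusted p = 0.0025), and 2 of the 3 adolescent arrays were well above background. The AHSP probe is printed because the gene is a mark of immature red cells.
AHSP: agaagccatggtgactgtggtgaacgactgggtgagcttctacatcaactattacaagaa
The adult-type HBB differed less and more erratically, at −0.33, 3.94 and 2.90 in fetal border and −1.67, 1.66 and −1.19 in adolescent border (−2.57 ± 1.34, adjusted p = 0.23, and 0.047 with the replicate number as a block). The groups overlapped, and HBB was highest on the array of number 2 at both ages. Of 4 measured erythroid markers 1 was lower and none higher, with a median of −1.34. Their summed level was 1.95, 17.7 and 8.41 in fetal border and 0.46, 3.32 and 0.628 in adolescent border, and its part in the globin values was not tested.

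Of 13 measured members of the insulin-like growth factor axis 3 were lower in adolescent border and none higher. IGF2, the main growth factor of fetal tissues, had levels of 7.46, 7.45 and 7.57 in fetal border and 2.89, 3.16 and 3.30 in adolescent border, 20.8-fold lower (−4.38 ± 0.30, adjusted p = 8.6e-08). Another IGF2 probe, within the reading frame, gave −5.04 ± 0.32 (adjusted p = 3.5e-08), from 5.57, 5.85 and 5.77 to 0.81, 0.87 and 0.40. Arrays of each age lay close together on both probes, and the coding probe reads as follows.
IGF2: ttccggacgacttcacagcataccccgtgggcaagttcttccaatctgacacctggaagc
IGFBP2, a binding protein of IGF1 and IGF2, read 4.73, 4.42 and 3.79 in fetal border and 1.33, 0.29 and −0.62 in adolescent border, 15.8-fold lower (−3.98 ± 0.48, adjusted p = 4.3e-05). IGF2R, the receptor that takes IGF2 to the lysosome, was lower as well (−1.70 ± 0.43, adjusted p = 0.014), with fetal levels of 0.42 to 0.64 and adolescent levels of −1.46 to −0.78. The list median was −0.12 against 0.18 for named genes. IGF1, the growth factor of life after birth, did not pass (0.41 ± 0.50, adjusted p = 0.65), nor did its receptor IGF1R (−0.22, adjusted p = 0.79) or the growth hormone receptor GHR (−0.12, adjusted p = 0.88). The call of IGF2R ended without adolescent border 2 or fetal border 3 (adjusted p = 0.052 and 0.059).

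Receptors of angiotensin were lower in adolescent border. AGTR2, the receptor type that is abundant in fetal tissues, lay at −3.19, −2.84 and −2.81 in fetal border. In adolescent border it read −5.97, −6.20 and −6.43 and was not well above background on any array, so that it was at least 5.24-fold lower (adjusted p = 2.5e-05). Its probe is shown because in border tissue the transcript was well above background at 1 of the 2 ages only.
AGTR2: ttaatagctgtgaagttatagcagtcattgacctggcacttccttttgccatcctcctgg
AGTR1, the receptor that raises vascular tone, was 2.50-fold lower (−1.32 ± 0.35, adjusted p = 0.018), from 0.06, 0.06 and 0.47 to −1.94, −0.82 and −0.62. Its call ended without adolescent border 1 or fetal border 3 (adjusted p = 0.078 to 0.10).

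Steroid-related genes included the enzyme HSD11B1, which turns inactive cortisone into cortisol inside cells. HSD11B1 was 4.95-fold higher in adolescent border (2.31 ± 0.43, adjusted p = 0.0020), at −0.46, −0.45 and −0.39 against −1.80, −2.49 and −3.93. The 3 adolescent arrays lay almost on top of each other while the fetal arrays spread over more than 2 log2 units, and the difference was 1.71 without fetal border 3. PGR, the progesterone receptor, was at least 2.74-fold higher (adjusted p = 6.9e-05), at −3.89, −4.92 and −4.01 against fetal arrays that were all at background. Of the 12 measured genes of steroid and thyroid signalling these 2 were higher and none lower, with a median of 0.23. The glucocorticoid receptor NR3C1 did not pass (−0.31, adjusted p = 0.72), nor did the mineralocorticoid receptor NR3C2 (−0.35, adjusted p = 0.55) or the thyroid hormone receptor THRB (0.87, adjusted p = 0.11).

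Antibody genes IGHA and IGHG1 had the highest differences among the named genes. IGHA, the constant region of IgA heavy chains, was measured at 2.57, 3.35 and −0.42 in adolescent border and at −7.55, −3.84 and −6.24 in fetal border, where 1 of 3 arrays was well above background. The fit put it 210-fold higher (7.71 ± 1.02, adjusted p = 1.1e-04), a value that uses fetal levels below background. The IGHA probe runs to a final tga and carries the highest of these differences.
IGHA: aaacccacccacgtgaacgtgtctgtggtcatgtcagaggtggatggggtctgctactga
IGHG1, the heavy chain of IgG, was 77.3-fold higher (6.27 ± 0.67, adjusted p = 1.4e-05), at 2.71, 4.73 and 1.88 against −3.59, −2.82 and −3.09. IGHM, the heavy chain of IgM that naive B cells also carry, read 4.88, 8.82 and 2.91 against 2.24, 1.73 and 0.10 (4.18 ± 1.18, adjusted p = 0.026). LOC100037688, a kappa light chain, read −0.15, 3.85 and −1.79 against −1.81, −2.67 and −4 (3.47 ± 1.06, adjusted p = 0.039), and of its other 4 probes 2 passed (3.07 and 3.43, adjusted p = 0.041 and 0.040) and 2 did not (2.54 and 3.05, 0.23 and 0.19). Adolescent border 2 was the highest array for all 4 genes and adolescent border 3 the lowest.

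Immunoglobulin probes as a family, picked out after their values were seen, numbered 75, of which 46 passed the filter. Of those 29 were higher and none lower, with differences from −0.05 to 7.71 and a median of 3.78. On 20 of the 46 no fetal border array was well above background, so that these entered the test through other groups and the count of the family supports nothing. The calls of IGHM and LOC100037688 ended without adolescent border 2 (differences of 2.54 and 1.86), and also without fetal border 2 or 3, and that of LOC100037688 without adolescent border 1 (adjusted p = 0.057 to 0.20 over both genes). IGHA lay between 6.87 and 8.84 and IGHG1 between 5.46 and 6.89 when any 1 array was left out.

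Chains of the CD3 complex were higher in adolescent border, with little spread between arrays. CD3E, a signalling chain of the T cell receptor complex, was 5.03-fold higher in adolescent border (2.33 ± 0.30, adjusted p = 7.3e-05), at −0.12, −0.23 and 0.19 against −2.40, −2.40 and −2.35. CD3D, its partner chain, was 5.54-fold higher (2.47 ± 0.31, adjusted p = 6.9e-05), at −1.82, −1.56 and −1.57 against −3.93, −4.29 and −4.15. Both ages formed tight clusters here, including the arrays of number 3. All 5 probes for CD3 chains were higher, with differences of 2.13 to 2.66. IL2RA, the alpha chain of the interleukin-2 receptor, was 2.80-fold higher (1.48 ± 0.35, adjusted p = 0.0095), with a call that ended without fetal border 3 (adjusted p = 0.053). GNLY, a protein of cytotoxic granules, read −1.05, −1.43 and −0.44 against −6.22, −4.77 and −4.70, 19.1-fold higher (4.26 ± 0.62, adjusted p = 3.0e-04), while its other probes gave 4.70 (adjusted p = 8.7e-05) and 0.66 (0.16). Of the 7 measured T and NK cell markers 3 were higher and none lower, with a median of 1.08. LCK, CD5, CTLA4 and CD247 were at 0.83, 1.08, 0.54 and 0.33 and did not pass. The summed level of the 7 was 1.59, 1.51 and 1.85 in adolescent border and 0.48, 0.458 and 0.412 in fetal border. Of 42 probes for T cell receptor chains 14 passed the filter, and 4 were higher and none lower. On 11 of the 14 no fetal border array was well above background, so that these entered the test through other groups and the count supports nothing. This family and the CD3 chains, like the lists, were chosen with earlier results of these data known.

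**Figure D3:**
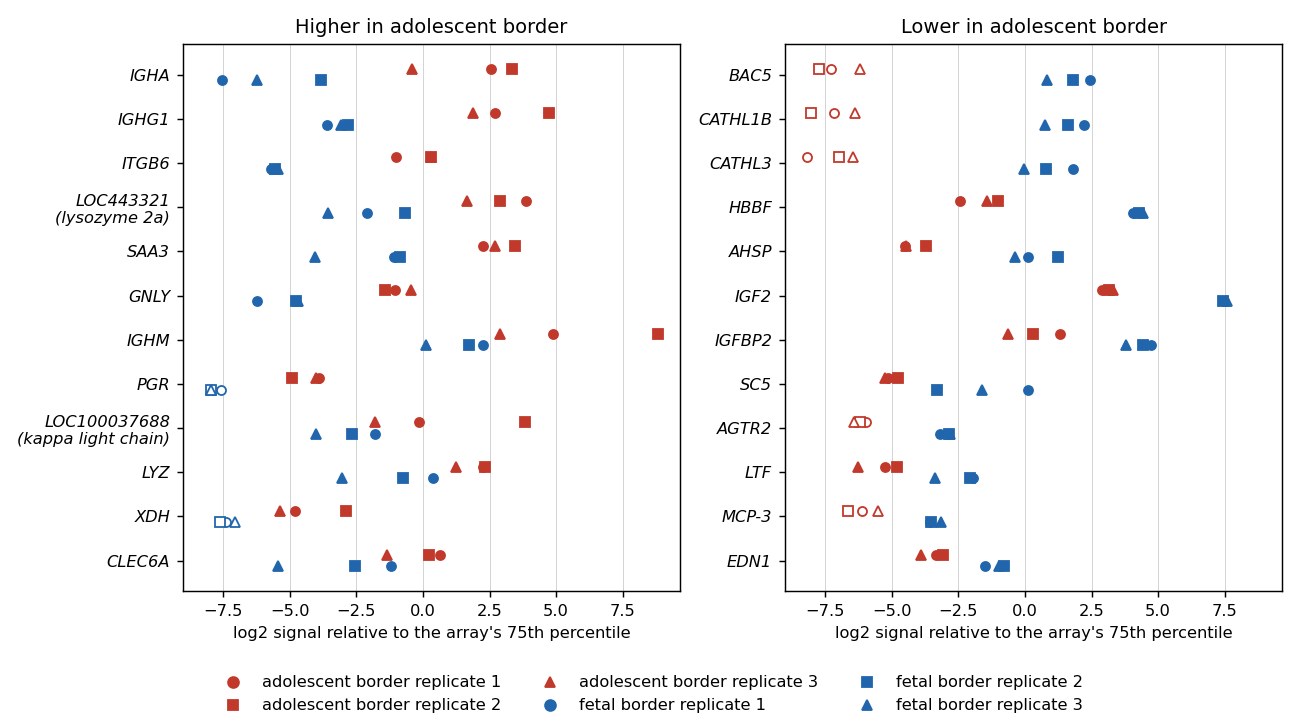
Level on each border array of the 12 named genes with the highest (left) and the 12 with the lowest (right) difference past the threshold and of 1 sign on every slide, in log2 signal relative to the array's 75th percentile. Red marks adolescent and blue fetal border, symbols give the replicate number, and open symbols mark a group with no array well above background; the groups overlap for CLEC6A alone, at −1.36 on adolescent border 3 and −1.19 on fetal border 1.

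Several genes of phagocytes and acute inflammation were higher in adolescent border, and most of their calls depended on single arrays. LOC443321, described on the array as lysozyme 2a, an enzyme that cuts bacterial walls, read 3.88, 2.88 and 1.65 against −2.09, −0.67 and −3.58, 30.3-fold higher (4.92 ± 1.20, adjusted p = 0.012). LYZ, another lysozyme, read 2.26, 2.33 and 1.25 against 0.36, −0.76 and −3.03, 8.53-fold higher (3.09 ± 0.82, adjusted p = 0.019). SAA3, a serum amyloid A made by inflamed tissue, was 28.1-fold higher (4.81 ± 0.95, adjusted p = 0.0029), at 2.25, 3.47 and 2.70 against −1.08, −0.86 and −4.07. For all 3 genes the groups did not overlap, and fetal border 3 was the lowest array. CD14, the coreceptor for bacterial lipopolysaccharide, was 3.44-fold higher (1.78 ± 0.50, adjusted p = 0.025) and C5AR1, the receptor of complement C5a, 4.06-fold (2.02 ± 0.64, adjusted p = 0.046). CLEC6A, a C-type lectin of myeloid cells, had the weakest call (2.90 ± 0.94, adjusted p = 0.049), with overlapping levels of 0.65, 0.21 and −1.36 against −1.19, −2.54 and −5.46.

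Of 7 measured macrophage and monocyte markers 2 were higher and none lower, with a median of 1.41, and of 17 genes of acute phase and innate sensing 3 were higher and 1 lower, with a median of 0.87. ITGAM, FCER1G and CTSS, at 2.01, 1.37 and 1.34, did not pass, nor did the receptors TLR2 and TLR4 at 1.9 and 1.18. LGMN, a lysosomal protease, missed the threshold (1.41 ± 0.46, adjusted p = 0.051, and 0.043 with the replicate number as a block), and another of its probes passed (1.62, adjusted p = 0.037). ICAM1, the adhesion molecule that white cells hold on to, was at 1.07 ± 0.40 (adjusted p = 0.085, and 0.042 with the block). The macrophage sums above are built from genes that include CD14, LYZ, LGMN and ITGAM, so they are no separate evidence on these genes. The part of cell content in the differences was not tested. Without both arrays of number 3 the differences were 4.76 for LOC443321, 2.50 for LYZ, 3.84 for SAA3, 1.54 for CD14 and 1.66 for C5AR1, of which SAA3 passed (adjusted p = 0.039) and the others lay at 0.060 to 0.14. Leaving out fetal border 3 alone took LYZ to 2.15, CD14 to 1.18, C5AR1 to 1.27 and SAA3 to 3.78, and ended the calls of LOC443321, LYZ, CD14, C5AR1 and CLEC6A. All of these calls but that of SAA3 also ended without adolescent border 1, those of LYZ, CD14, C5AR1 and CLEC6A without adolescent border 2, and those of C5AR1 and CLEC6A without fetal border 2 (adjusted p over these 5 genes 0.055 to 0.25).

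Among 19 cytokines and chemokines 1 was higher and 1 lower, with a median of 0.15, close to that of named genes. TNF, a cytokine of acute inflammation, read −0.87, −0.76 and −1.52 against −1.67, −3.15 and −3.95, 3.66-fold higher (1.87 ± 0.49, adjusted p = 0.017). MIF, a factor that keeps macrophages in place, was 2.25-fold lower (−1.17 ± 0.28, adjusted p = 0.0099), at 4.92, 4.57 and 3.63 against 5.59, 5.64 and 5.39. Neither pair of groups overlapped. IL6, IL1B and CXCL8 did not pass, at 1.80 ± 0.98 (adjusted p = 0.25), 0.15 ± 0.52 (0.89) and −0.17 ± 0.93 (0.93), and for CXCL8 the fetal arrays alone ran from −0.14 to −4.07. IL1RN and IL10, which restrain inflammation, missed the threshold at 2.87 ± 0.98 and 1.55 ± 0.50 (adjusted p = 0.060 and 0.051) and passed it with the replicate number as a block (0.028 and 0.038). NFKBIA, the inhibitor that NF-kappa-B induces, was 1.82-fold higher (0.87 ± 0.24, adjusted p = 0.022). The call of TNF ended without adolescent border 1 or 2 or fetal border 2 or 3 (adjusted p = 0.059 to 0.10) and that of NFKBIA without adolescent border 1 or fetal border 2 or 3 (0.050 to 0.092).

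Antigen presentation was represented by 11 genes, of which 4 were higher and none lower, with a median of 1.03. DRB1, a beta chain of the class II complex that presents peptides to helper T cells, was 4.19-fold higher (2.07 ± 0.38, adjusted p = 0.0017), at 1.78, 2.13 and 1.44 against 0.53, −0.21 and −1.16. B2M, the light chain of class I molecules, was 2.07-fold higher (1.05 ± 0.27, adjusted p = 0.017), at 6.09, 5.82 and 6.08 against 5.18, 4.60 and 5.07. PSMB8, a subunit of the immunoproteasome, and DQA, a class II alpha chain, were 2.05-fold and 2.40-fold higher (adjusted p = 0.039 and 0.045), though another DQA probe gave −0.91 (adjusted p = 0.55). The call of DRB1 held when any 1 array was left out, with differences of 1.63 to 2.47, but not with only the border groups in the fit or with normexp. That of B2M ended without adolescent border 1 or fetal border 2 (adjusted p = 0.058 and 0.085), that of PSMB8 without any 1 array except adolescent border 3 and that of DQA without any 1 except fetal border 1 (0.051 to 0.18).

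Genes of the interferon response did not follow this pattern, with 1 of 6 lower, none higher and a median of −0.55. IRF3, a transcription factor that starts interferon production, was 1.77-fold lower (−0.82 ± 0.14, adjusted p = 7.7e-04), at −1.82, −1.99 and −1.80 against −1.02, −1.12 and −1.01. ISG15, a ubiquitin-like protein induced by interferon, read 1.91, 0.71 and 0.29 against 4.34, 1.51 and 3.09 (−2.01 ± 0.67, adjusted p = 0.055, and 0.0093 with the replicate number as a block). MX1, an antiviral GTPase, stood at −1.28 and did not pass. IRF1, which interferon gamma induces, was at 1.04 ± 0.36 (adjusted p = 0.067, and 0.041 with the block).

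Proteases of the matrix and their inhibitors were higher in 3 of 13 cases and lower in none, with a median of 0.52. TIMP1, an inhibitor of matrix metalloproteinases, was 7.43-fold higher (2.89 ± 0.65, adjusted p = 0.0069), at 8.61, 9.29 and 9.12 against 7.15, 6.80 and 4.40. Fetal border 3 was far below its partners, and without it the difference was 2.04. Without both arrays of number 3 it was 1.98 (adjusted p = 0.079). PLAU, the urokinase that activates plasminogen, was 2.29-fold higher (1.20 ± 0.29, adjusted p = 0.012), at −1.06, −1.57 and −2.32 against −2.53, −2.81 and −3.20. CTSB, a lysosomal cathepsin, was 3.37-fold higher (1.75 ± 0.51, adjusted p = 0.031) with overlapping groups, and its difference was 1.13 without fetal border 3. PLAUR, the urokinase receptor, missed the threshold (2.25 ± 0.76, adjusted p = 0.059, and 0.023 with the block). The calls of PLAU ended without adolescent border 1 or fetal border 3 and those of CTSB without adolescent border 1 or 2 or fetal border 2 or 3 (adjusted p = 0.055 to 0.17).

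The matrix itself did not differ by this test. None of 13 extracellular matrix genes passed, and their median was −0.10. COL1A1, a chain of the main scar collagen, read 0.92, 1.89 and 0.46 against 0.51, 1.05 and −0.39 (0.70 ± 0.50, adjusted p = 0.39). COL3A1 read 3.49, 4.35 and 2.16 against 3.56, 4.04 and 2.71 (−0.10 ± 0.66, adjusted p = 0.94), and DCN, the proteoglycan decorin, was within −0.10 ± 0.17 (adjusted p = 0.77). Both collagens were highest on the array of number 2 and lowest on that of number 3 at both ages. The basement membrane chain COL4A2 was at −0.72 ± 0.36 (adjusted p = 0.20, and 0.030 with the replicate number as a block). Among 6 fibroblast markers S100A4, a calcium-binding protein also found in white cells, was 6.85-fold higher (2.78 ± 0.83, adjusted p = 0.034), at 6.40, 6.19 and 4.63 against 4.58, 3.34 and 0.97, and the other 5 did not pass. That call ended without adolescent border 1 or 2 or fetal border 2 or 3 (adjusted p = 0.064 to 0.19), with a difference of 1.78 without fetal border 3.

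ITGB6, the beta chain of an epithelial integrin that frees TGF-beta from its latent form, was 43-fold higher in adolescent border (5.42 ± 0.56, adjusted p = 1.3e-05), at −1.02, 0.30 and 0.30 against −5.71, −5.54 and −5.44. XDH, the xanthine oxidoreductase that makes uric acid, was at least 2.62-fold higher (adjusted p = 0.0088), at −4.79, −2.88 and −5.35, and its call ended without adolescent border 2 (adjusted p = 0.056). TUBA4A, an alpha tubulin, was 6.08-fold higher (2.60 ± 0.27, adjusted p = 1.4e-05), at 1.73, 1.9 and 2.31 against −0.90, −0.45 and −0.54. ITGB6 and TUBA4A kept both ages tightly clustered on all 3 slides.

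Of 23 genes of angiogenesis and vascular tone 3 were lower and 1 higher in adolescent border, where 15.1% of all named genes passed. EDN1, the vasoconstrictor endothelin 1, was 5.09-fold lower in adolescent border (−2.35 ± 0.42, adjusted p = 0.0014), at −3.34, −3.07 and −3.89 against −1.5, −0.78 and −0.98. KDR, the main receptor of VEGF on endothelium, was 2.36-fold lower, just inside the threshold (−1.24 ± 0.40, adjusted p = 0.050), while its other 3 probes gave −1.01 (adjusted p = 0.028), −0.98 (0.067) and −1.23 (0.068). MET, the receptor of hepatocyte growth factor, was 2.23-fold lower (−1.16 ± 0.28, adjusted p = 0.012), and FGFR2, a receptor of fibroblast growth factors, was at least 1.98-fold higher, again just inside the threshold (0.050). The list median was −0.19. VEGFA itself read 0.45, 0.26 and 1.79 against 1.96, 1.68 and 1.95 (−1.03 ± 0.54, adjusted p = 0.23), and of 10 endothelial markers EDN1 and KDR were lower and none higher, with a median of −0.34. The summed endothelial level was 9.76, 6.82 and 6.94 in adolescent border and 8.88, 10.8 and 11.4 in fetal border. The calls of KDR and FGFR2 ended when any 1 array was left out (adjusted p = 0.061 to 0.21) and that of MET without fetal border 2 (0.058).

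Of 27 genes of developmental signalling 6 were lower and 1 higher, with a median of −0.42. SMAD7, the inhibitor of TGF-beta signalling, was 2.60-fold lower (−1.38 ± 0.26, adjusted p = 0.0021), at −3.20, −3.64 and −4.30 against −2.29, −2.24 and −2.48. WNT5A and BMP4, ligands that shape the embryonic heart, were 2.14-fold and 2.10-fold lower (adjusted p = 0.0095 and 0.0080). TGFBR2, the type II receptor of TGF-beta, went the other way, 2.31-fold higher (1.21 ± 0.21, adjusted p = 0.0011), at −0.69, −0.61 and −0.85 against −1.99, −1.98 and −1.80. The ligands TGFB1, TGFB2 and TGFB3 did not pass, at −0.37, −0.66 and 0.20. The call of BMP4 ended without adolescent border 2, at an adjusted p that rounds to 0.050.

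Of 13 measured genes of the cell cycle 2 passed, where 15.1% of all named genes did. CCND2, a D-type cyclin, was 2.08-fold lower in adolescent border (−1.06 ± 0.27, adjusted p = 0.014), at 3.37, 3.65 and 3.99 against 4.44, 4.65 and 5.10. CDK2, the kinase of S phase entry, was 1.73-fold lower (−0.79 ± 0.19, adjusted p = 0.010), and none was higher, with a list median of −0.37 against 0.18 for named genes. The mitotic genes CDK1 and CCNB1 read −0.22, −0.31 and −1.56 against 0.24, −0.08 and −0.65 and 1.71, 1.63 and 0.38 against 1.33, 1.23 and 0.38, with no call (−0.53 and 0.25, adjusted p = 0.36 and 0.71). Adolescent border 3 was the lowest adolescent array for both. HMGB2, a chromatin protein of dividing cells, was at −0.86 ± 0.31 (adjusted p = 0.073, and 0.030 with the replicate number as a block). The call of CCND2 ended without adolescent border 1 or fetal border 3 (adjusted p = 0.066 and 0.078) and that of CDK2 without fetal border 3 (0.052).

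Muscle and fuel genes gave few calls. MYH7, the slow myosin heavy chain, read 2.89, 3.30 and 3.86 in adolescent border against 2.57, 3.02 and 3.67 in fetal border (0.26 ± 0.65, adjusted p = 0.84). MB, the oxygen store myoglobin, read 7.05, 7 and 8.33 against 6.88, 6.73 and 7.38 (0.46 ± 0.60, adjusted p = 0.67). In both groups the array of number 3 was highest. GJA1, the gap junction protein connexin 43 of the working muscle, was 2.22-fold lower in adolescent border (−1.15 ± 0.31, adjusted p = 0.019), at 0.88, 1.16 and 2.07 against 2.17, 2.68 and 2.71, and of its other 3 probes 1 passed (−1.22, adjusted p = 0.024) and 2 did not (0.077 and 0.11). CKB, a creatine kinase, was 2.23-fold higher (1.16 ± 0.23, adjusted p = 0.0035). The call of GJA1 ended without adolescent border 1 or 2 or fetal border 2 or 3 (adjusted p = 0.070 to 0.097).

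None of 18 genes of glycolysis and glucose transport passed through its brightest probe, with a median of 0.10. With gene means over probes 1 was higher and 1 lower. PFKM, the muscle phosphofructokinase, was at 1.25 ± 0.41 (adjusted p = 0.051), and another of its probes passed (1.28, adjusted p = 0.045). SLC2A4, the insulin-dependent glucose transporter, read 2.70, 3.19 and 3.82 against 1.70, 0.32 and 1.53 and SLC2A3, a transporter abundant in the fetus and placenta, 3.18, 3.17 and 3.82 against 6.11, 4.18 and 4.34. Both pairs of groups were separate, and both genes were outside the threshold (2.05 ± 0.68, adjusted p = 0.053, and −1.49 ± 0.48, 0.051), SLC2A3 inside it on another probe (−1.58, adjusted p = 0.030) and with the replicate number as a block (0.018). LPL, the lipase that feeds muscle with fatty acids, was the 1 call among 11 genes of fatty acid use, 3.55-fold higher (1.83 ± 0.40, adjusted p = 0.0062), at 2.15, 2.16 and 2.32 against 0.37, 0.04 and 0.74. The list median was 0.07. CPT1B, PPARA and PPARGC1A were at −0.12 ± 0.37, 0.07 ± 0.26 and −1.55 ± 0.75 (adjusted p = 0.88, 0.89 and 0.19). CRYAB, the small heat shock protein of muscle, was at 1.23 ± 0.40 from 5 arrays, since its spot on adolescent border 3 was marked as an outlier (adjusted p = 0.052, and 0.037 with the block, at 1.14). None of 9 genes of heat shock and protein folding, 7 of the hypoxia response and 5 of antioxidant defence passed, with medians of −0.15, 0.04 and 0.13. MCL1, which keeps cells from apoptosis, was the 1 call among 9 genes of that list, 2.18-fold higher (1.13 ± 0.24, adjusted p = 0.0057), at 1.46, 1.44 and 1.45 against 0.65, 0.30 and 0.02.

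**Figure D4:**
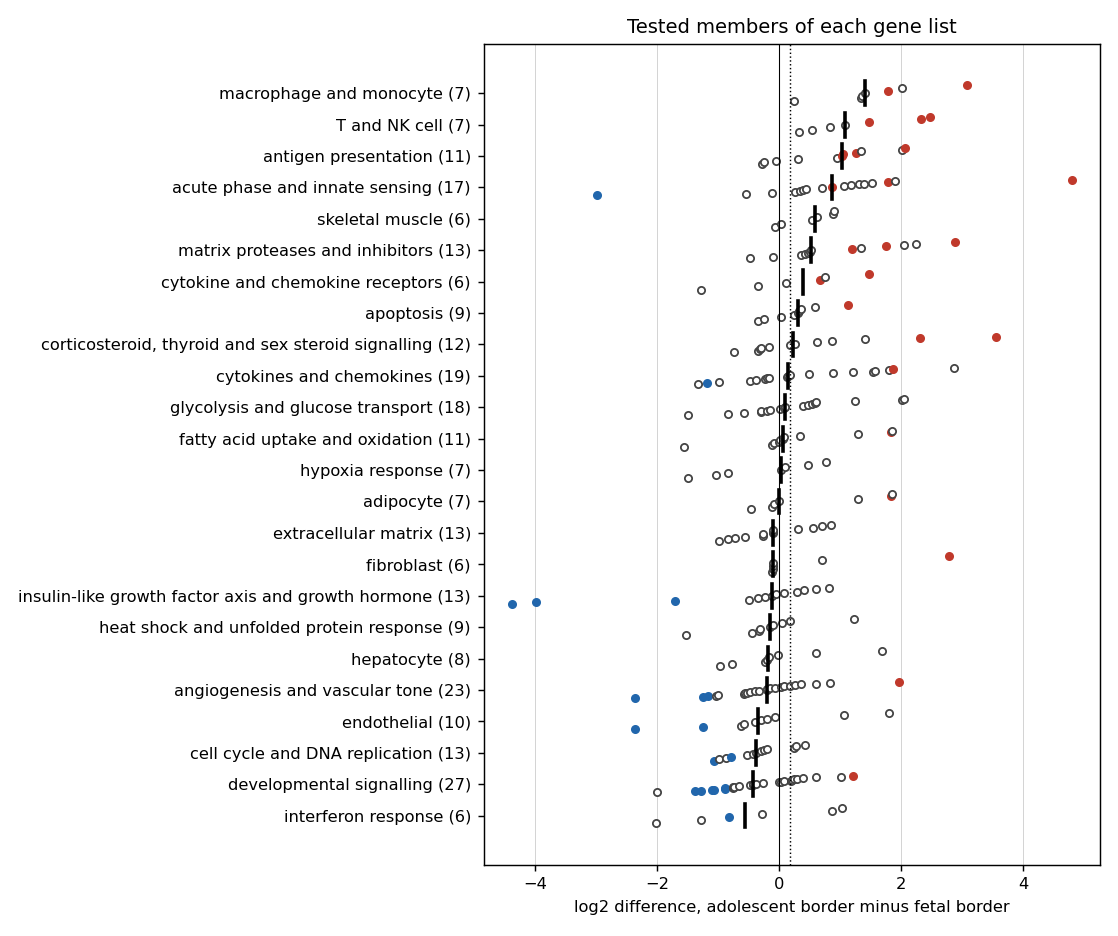
Difference in level, adolescent minus fetal border on the log2 scale, of each tested member of the lists with 6 or more, the number in brackets. Filled red and blue points are the members past the threshold, higher and lower, the thick bar is the list median and the dotted line is the median of 0.18 over the 880 named genes; the macrophage and monocyte list has the highest median (1.41) and the interferon response the lowest (−0.55).

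The difference between the ages was then set beside the same difference in the other zones. By the same test 3882 probes (31.2%) differed between the ages in remote tissue, 2171 (17.4%) in infarct tissue and 3727 (29.9%) in sham tissue, each against the 1609 (12.9%) in border. Higher at the older age were 15.2% of probes in remote, 6.97% in infarct and 15.2% in sham tissue, and lower were 16%, 10.5% and 14.8%. Of the 24 named genes with the highest and lowest differences in border, 18 also passed in remote, 19 in infarct and 16 in sham, 14 of them in all 3, and CLEC6A and the mast cell proteinase MCP-3 in none. In remote, infarct and sham CLEC6A was at 2.49, 2.45 and 0.99 (adjusted p = 0.051, 0.079 and 0.51). MCP-3 was at −1.75, −1.87 and −1.33 there (0.064, 0.071 and 0.21). BAC5 was lower at the older age by at least 130-fold in border, 84.3-fold in infarct and 28.6-fold in sham, where no adolescent array was well above background, and its difference in remote was −7.96. IGF2 stood at −4.38, −3.69, −4.61 and −3.33 and CD3E at 2.33, 3.14, 2.41 and 3.60 in border, remote, infarct and sham. No test of a difference between zones passed for CLEC6A, MCP-3, IGF2 or CD3E, which does not show that the zones were alike.

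The border difference minus the remote difference passed for 1 probe (0.00803%), which has no named gene. It passed for 0 to 13 probes when 1 array other than adolescent border 3 was left out, and for 576 without adolescent border 3. That array was the adolescent border array nearest to remote tissue, so its omission cannot decide whether the zones differ. Without that array CCNA2, CDK1, CCNB1 and TYMS, genes of dividing cells, had border differences above the remote ones by 2.85, 3.04, 2.23 and 2.38 (adjusted p = 0.0038, 0.0036, 0.018 and 0.0050). With all arrays they were at 2.27, 2.60, 1.80 and 2.00 (0.093, 0.072, 0.14 and 0.074).

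Against infarct tissue the age difference of border tissue was another for 218 probes (1.75%), 210 of them positive (1.69%) and 8 negative (0.0643%), and for 24 named genes, all positive. Of the 218 probes 56 also passed in border itself. Muscle genes were among them. MYH7 was 0.26 in border and −4.94 in infarct, 5.20 apart (adjusted p = 0.0079), with levels of 3.35 ± 0.49 (SD, n = 3) in adolescent border, 3.09 ± 0.55 in fetal border, −2.81 ± 1.97 in adolescent infarct and 2.13 ± 0.90 in fetal infarct. Adolescent infarct was thus the group that stood apart. MB differed between border and infarct by 4.12 (adjusted p = 0.015, and 0.051 to 0.059 without fetal infarct 1, fetal border 2 or adolescent border 3), ENO3, the muscle enolase, by 4.41 (0.0073), PFKM, the muscle phosphofructokinase, by 3.51 (0.0074) and TPM1, a tropomyosin, by 2.86 (0.0073). ITGB6 was also among them, at 5.42 in border against 1.38 in infarct (4.05, adjusted p = 0.013), and TUBA4A at 2.60 against 0.02 (2.59, 0.0073). The summed level of MYH7 and MB ranged from 1.23 to 16.6 on the adolescent infarct arrays, from 44.8 to 84.1 on the fetal infarct arrays and from 114 to 336 on the 6 border arrays, and its part in these differences was not tested.

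Against sham tissue 226 probes (1.82%) had another age difference in border, 191 positive (1.53%) and 35 negative (0.281%), and 26 named genes, 20 positive and 6 negative. Genes of dividing cells were among the positive ones. CCNA2, the cyclin of S phase and mitosis, was −0.42 in border and at least 10.9-fold lower at the older age in sham. The fit put the difference between border and sham at 4.84 (adjusted p = 4.4e-04), a value that uses sham levels below background. Its level was −1.46 ± 1.01 in adolescent border, −1.04 ± 0.35 in fetal border and −0.88 ± 0.45 in fetal sham (SD, n = 3 each), and neither of the 2 adolescent sham arrays was well above background. TYMS, the thymidylate synthase of DNA replication, was 0.28 in border and at least 5.93-fold lower in sham, where again neither adolescent array was well above background (4.26 in the fit, adjusted p = 1.9e-04). CCNB1 and CDK1 followed at 3.42 and 3.03 (0.0039 and 0.0077). In sham and remote tissue these 4 genes were lower at the older age, and in border and infarct tissue their ages lay within 0.60 of each other.

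HBBF was highest among the adolescent tissues in border. There it was at −1.64 ± 0.73 (SD, n = 3), above adolescent infarct (−5.50 ± 1.24), remote (−5.01 ± 0.51, no array well above background) and sham (−4.89 ± 0.74, n = 2), while fetal levels ran from 3.34 in infarct to 4.29 in remote. Its age difference was −5.90 in border, −8.84 in infarct, −9.30 in remote and −9.07 in sham. The tests of these differences missed the threshold (adjusted p = 0.074, 0.080 and 0.061), and without adolescent border 3 those against remote and sham passed (0.040 and 0.042).

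**Figure D5:**
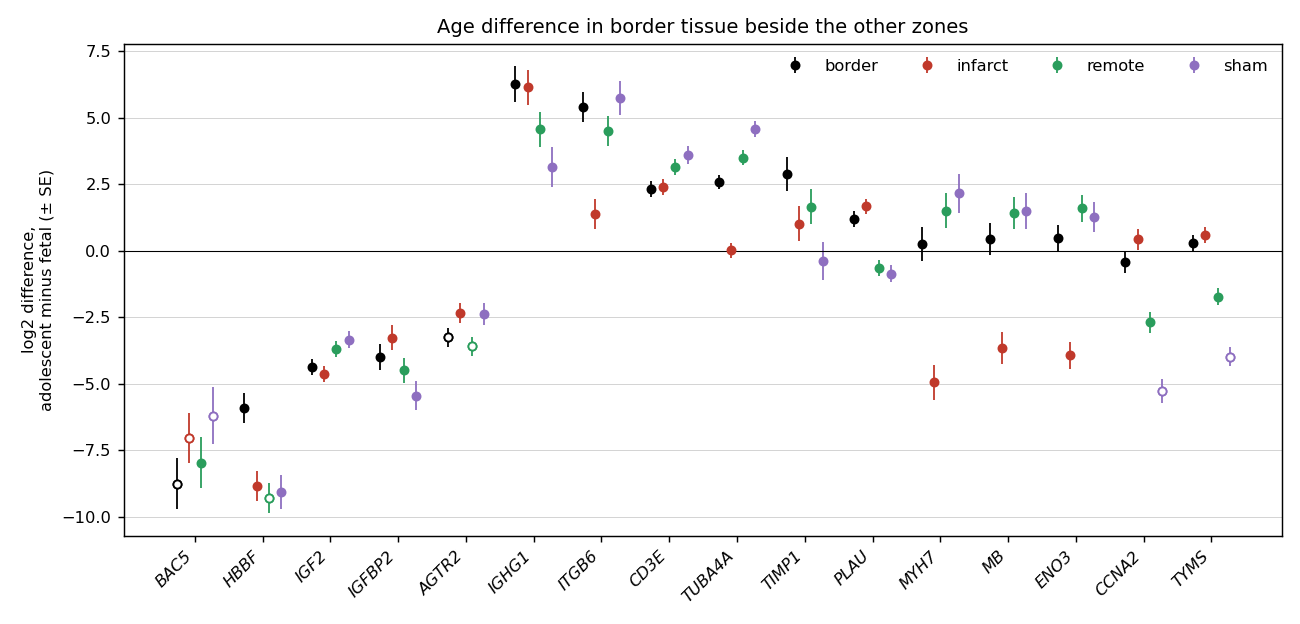
Difference in level, adolescent minus fetal on the log2 scale with its standard error, of 16 genes in border, infarct, remote and sham tissue. Open symbols mark fitted differences where no array of 1 age was well above background. These use levels below background and can lie beyond the bounds given in the text. BAC5 in border is drawn at −8.75, where it was lower by at least 7.02. For MYH7 the infarct lies at −4.94 against 0.26 in border. For CCNA2 remote lies at −2.69 against −0.42 in border, a difference that did not pass (adjusted p = 0.093).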

How the data were processed

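RNA of 23 sheep heart samples was hybridised to 1-colour arrays, and the deposited scanner files give background-subtracted, processed intensity per spot, per the file headers. The deposited value table holds log2 values of 8411 probes by the authors, whose submitters' processing notes name limma with no version. Its values correlated with the scanner log2 values at 0.9539 to 0.9808 per array. Its own array medians were nearly equal, at 9.267 to 9.305, unlike the scanner intensities, whose 75th percentiles ran from 128.9 to 1345. It served as an alternative. The aligner and genome build do not apply to arrays.

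Control spots and outlier spots were left out, spots of a probe averaged, and log2 intensity set relative to the array's 75th percentile. Probes well above background on at least 2 arrays of a group were tested with limma 3.58.1 in R 4.3.3, in 1 fit over 8 groups, which was tested on simulated data. Names came from the array's own columns and a RefSeq gene table (1713 of 15008 probes, 1055 genes); 24 probes with conflicting names stayed unnamed. Genes named are the 12 highest and 12 lowest called differences whose sign was the same on all slides, up to 4 per list by the moderated statistic, a set of heart genes, and the 3 highest and 3 lowest per comparison of age differences; further list members named with values were chosen after those were seen. The members and lists were chosen with earlier results of these data known.

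The replicate number is the slide, and all 3 slides were scanned on 1 day. Deviations of same-numbered border arrays from their group means correlated at 0.18, 0.21 and 0.42, against −0.33 to 0.21 for other numbers. These ranges overlap, and deviations from a mean of 3 arrays depend on each other. The values thus cannot decide whether the numbers pair the arrays. The main fit has no slide term. Position on the slide and group cannot be told apart. Correlations between arrays of a border group were 0.961 to 0.983, and none were identical. Alternatives were the background correction, 3 other scales or value sets, 2 filters, the slide as a block, array weights, array brightness, the samples in the fit, gene means and leaving out each array. Results on some genes are not reported here.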

Additional observations from a re-analysis of the deposited data

Results flagged for a closer look

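The tests of the border age difference against that of the other tissues gave the following values, each the border difference minus the other difference on the log2 scale. Against remote tissue 1 probe passed, against infarct tissue 218 and against sham tissue 226.

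The 3 highest named genes against infarct were MYH7 at 5.20, ENO3 at 4.41 and MB at 4.12. The 3 lowest were PYGB, a glycogen phosphorylase, at 1.53, CAST, the calpain inhibitor, at 1.97 and NR3C2 at 1.99, all 3 still positive. The call of NR3C2 ended when any of 8 arrays was left out (adjusted p = 0.066 to 0.12 in limma), among them adolescent border 3 and each fetal border array.

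Against sham the 3 highest were AHSG, the liver glycoprotein fetuin-A, at 8.37, CCNA2 at 4.84 and TYMS at 4.26, and the 3 lowest TUBA4A at −1.98, DBP, a clock-controlled transcription factor, at −1.94 and ALDOA, the muscle aldolase, at −1.24. AHSG was at 3.34 ± 3.60 (SD, n = 3) in fetal sham and not well above background on either adolescent sham array. The summed level of 8 hepatocyte markers, AHSG among them, was 199 on fetal sham 1 against 5.23 and 12.1 on fetal sham 2 and 3, and its part in this difference was not tested. The levels of CCNA2 and TYMS in adolescent sham were not well above background either, so that all 3 values use levels below background. The AHSG value lay between 6.40 and 9.92 with 1 array left out. Its call ended without any of 8 arrays, as did that of ALDOA (adjusted p = 0.054 to 0.13 over both). The calls of TUBA4A and DBP ended without any of 6 and 7 arrays (0.051 to 0.092). The calls of MYH7, ENO3, PYGB, CAST, CCNA2 and TYMS held with any 1 array left out.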

How the results depend on the processing

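The count of 1609 probes became 39 with normexp background correction (9 higher and 30 lower, so 23.1% of calls higher against 46.2%, with a median of all probes of 0.26), 3758 with array weights, 511 with only the border groups in the fit, 898 without both arrays of number 3 (chosen after seeing the data) and 876 to 1759 with 1 array left out. The 1 probe against remote became 0 with normexp, no filter, the replicate block or only the groups compared, 3 with quantile normalization, 34 with the deposited values, 66 with probes above background on every border array, 1223 with array weights, 161 without both arrays of number 3 and 0 to 576 with 1 array left out. The 218 against infarct became 0 with normexp or only the groups compared, 402 with array weights, 35 with array brightness in the fit and 103 to 335. The 226 against sham became 0 with normexp, 342 with quantile normalization, 147 without the filter, 412 with probes above background on every border array, 1341 with array weights, 15 with array brightness, 8 with only the groups compared, 709 without both arrays of number 3 and 64 to 1273, the highest without adolescent border 3. The 47 list calls became 2 with normexp, 104 with array weights, 17 with only the groups compared, 24 without both arrays of number 3 and 25 to 62. With normexp MCP-3 was 0.00 and MET 0.18, the 2 reversals among the genes picked by the naming rule, and the cause was not tested. Under the replicate block 1935 probes passed; besides the gene calls given beside their values and the remote count, it changed no other call among the 59 differing genes that the naming rule picks. Of those 59, 55 stayed past the threshold with quantile normalization, 58 with the other scale, 48 of the 51 with a value in the deposited table, 28 with only the border groups, and 34 to 54 with 1 array left out. Dim probes give bounds only, and 486 and 703 tested probes were not well above background on any adolescent or fetal border array.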
